A study of Mus musculus with 18 samples.

Results

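Fbxo32, Trim63, Trim54, Trim55, Foxo1, Foxo3 and Mstn, which encode muscle ubiquitin ligases of the atrophy programme and their relatives, the FOXO transcription factors and myostatin, were examined in the mouse heart during the first 72 h of acute myocardial infarction (AMI). The 7 genes were picked by symbol for their known roles in muscle protein breakdown, out of 24419 symbols in the table. Hearts came from 18 mice of strain C57BL/6 at 8 weeks of age, male per the study's methods and with no transgene or other allele named. Acute myocardial infarction was made under sodium pentobarbital by tying off the proximal left anterior descending coronary artery, and the infarcted left ventricle was collected after 10 min, 1 h, 6 h, 24 h or 72 h, with 3 mice at each time and 3 control mice, the sham mice of the study. Polyadenylated RNA was sequenced and expressed as FPKM, fragments counted per kilobase of transcript and scaled to the library, which corrects for length and so allows levels of different genes to be compared. No agent was given beyond the anaesthetic.

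Muscle loses protein when ubiquitin ligases tag contractile and regulatory proteins for the proteasome. Fbxo32 (atrogin-1, also called MAFbx) is the substrate-binding subunit of a cullin-RING ligase, and Trim63 (MuRF1) is a RING-finger ligase of the sarcomere. Trim55 (MuRF2) and Trim54 (MuRF3) are its close relatives, which bind titin and microtubules. FOXO factors drive transcription of Fbxo32 and Trim63 in starved or unloaded muscle, and insulin and IGF1 signalling through Akt keeps FOXO proteins out of the nucleus. Myostatin, a secreted relative of activin encoded by Mstn, restrains muscle growth and acts through Smad2 and Smad3. The RNA measured here does not show where FOXO proteins are or how active the ligases are.

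In the mm10 genome with GENCODE M21 genes, Fbxo32 lies at chr15:58175879-58214932 on the minus strand and Trim63 at chr4:134315120-134329629 on the plus strand. Trim54 is at chr5:31116712-31137630 and Trim55 at chr3:19644474-19692421, both on the plus strand. Foxo1 is at chr3:52268336-52353221 on the plus strand, Foxo3 at chr10:42181841-42276755 on the minus strand and Mstn at chr1:53061640-53068079 on the plus strand. All are protein-coding genes, and each value refers to a whole gene. RefSeq promoters of build GRCm38.p6, from 250 bases before to 50 after the start, were at hand for 5 of the 7 genes, all but Fbxo32 and Trim55. They were searched on both strands for the FOXO sequence GTAAACA, for AGAACA and TGTTCT spaced by 3 bases (the full glucocorticoid receptor site), and for CTA and TAG spaced by 4 bases (the MEF2 site). Only the promoter of Trim63 among the 5 held the FOXO sequence, which 3.65% of all 32851 promoters held. The full glucocorticoid receptor sequence was in 0.00913% and the MEF2 sequence in 3.69% of all promoters, and in none of the 5. The 250 bases before the start of Trim63 and of Trim54 are shown, since they are the 2 ligases with a promoter at hand and differed in their change, from 5′ to 3′. Capitals mark the FOXO sequence and the 6-base half-site TGTTCT of the glucocorticoid receptor, on either strand; the half-site was looked for after the sequences had been read, and 19.0% of all promoters held it.
Trim63, chr4:134314870-134315119, plus strand: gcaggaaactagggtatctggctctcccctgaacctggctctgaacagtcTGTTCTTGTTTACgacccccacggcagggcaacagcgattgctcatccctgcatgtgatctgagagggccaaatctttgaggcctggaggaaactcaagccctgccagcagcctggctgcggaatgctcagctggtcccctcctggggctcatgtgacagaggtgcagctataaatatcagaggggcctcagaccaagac
Trim54, chr5:31116362-31116611, plus strand: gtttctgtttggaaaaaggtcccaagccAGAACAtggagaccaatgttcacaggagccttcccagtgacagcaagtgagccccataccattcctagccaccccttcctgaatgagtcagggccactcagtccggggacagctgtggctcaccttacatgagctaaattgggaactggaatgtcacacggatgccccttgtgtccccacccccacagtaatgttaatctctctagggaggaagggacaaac
In Trim63 the FOXO sequence was on the minus strand, read as TGTTTAC on the strand printed, at positions -194 to -188 from the start. The half-site ended directly before it, at -200 to -195, without overlap. In Trim54 the half-site was on the minus strand at -222 to -217. These matches describe the letters of the window and not a site in use.

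Libraries of one group correlated with r from 0.969 to 0.996 on log2(FPKM + 1), and no pair of columns was identical. FPKM summed to between 542418 and 600467 a mouse, and depth relative to the first sham mouse, read from the ratios of FPKM up to 0.3, ran from 0.813 to 1.32, with the 2 highest values at 72 h. The table holds no read counts, so precision comes from the spread between 3 mice, which labels do not tie to separate experiments. The tissue carried heart muscle markers, whose 11 genes summed to between 44900 and 47706 FPKM in sham mice and between 17352 and 21500 at 72 h. Most markers of skeletal muscle fibres were nearly absent, with Myh4 listed at 0 in all 18 mice and Myh1 at 0.0194 FPKM or below, while fast troponin Tnnt3 ranged from 0.140 to 16.8 FPKM. The 10 skeletal muscle markers summed to between 1.71 and 2.92 FPKM in sham mice and between 10.4 and 18.3 at 72 h. Adipocyte markers were also low, with Adipoq at most 0.063 FPKM.

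None of the 4 ligases was called different from sham by limma through 24 h, and all 4 fell at 72 h. Trim54 dropped to 27.5%, Fbxo32 to 45.0%, Trim63 to 53.8% and Trim55 to 56.6% of the sham mean. Foxo1 fell slightly, to 86.6%, and Foxo3 was not called at 72 h. In sham hearts the mean level was highest for Trim54 (111 FPKM), followed by Fbxo32 (39.8), Trim63 (21.3), Trim55 (17.3), Foxo3 (9.25), Foxo1 (9.04) and Mstn (0.164). The mice of neighbours in this order did not overlap, except for Foxo3 and Foxo1, whose ranges did. With limma on log2(FPKM + 1) and Benjamini-Hochberg adjustment over all genes tested, a gene was called at an adjusted p under 0.05. Of the 6 genes that reached 1 FPKM in any mouse, 5 were called lower and 0 higher at 72 h. Among all 13329 genes tested at that time 24.2% were called lower and 53.1% higher. The split over all genes depended on scaling, with 7081 higher and 3226 lower genes in the values as deposited, 5243 and 4752 after median-of-ratios scaling, and 4389 and 5711 after quantile normalization. Over all genes the median change moved accordingly from 0.29 to 0.04 and -0.10 (log2), and 6 of the 6 genes were called lower after either of these scalings.

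**Figure D1:**
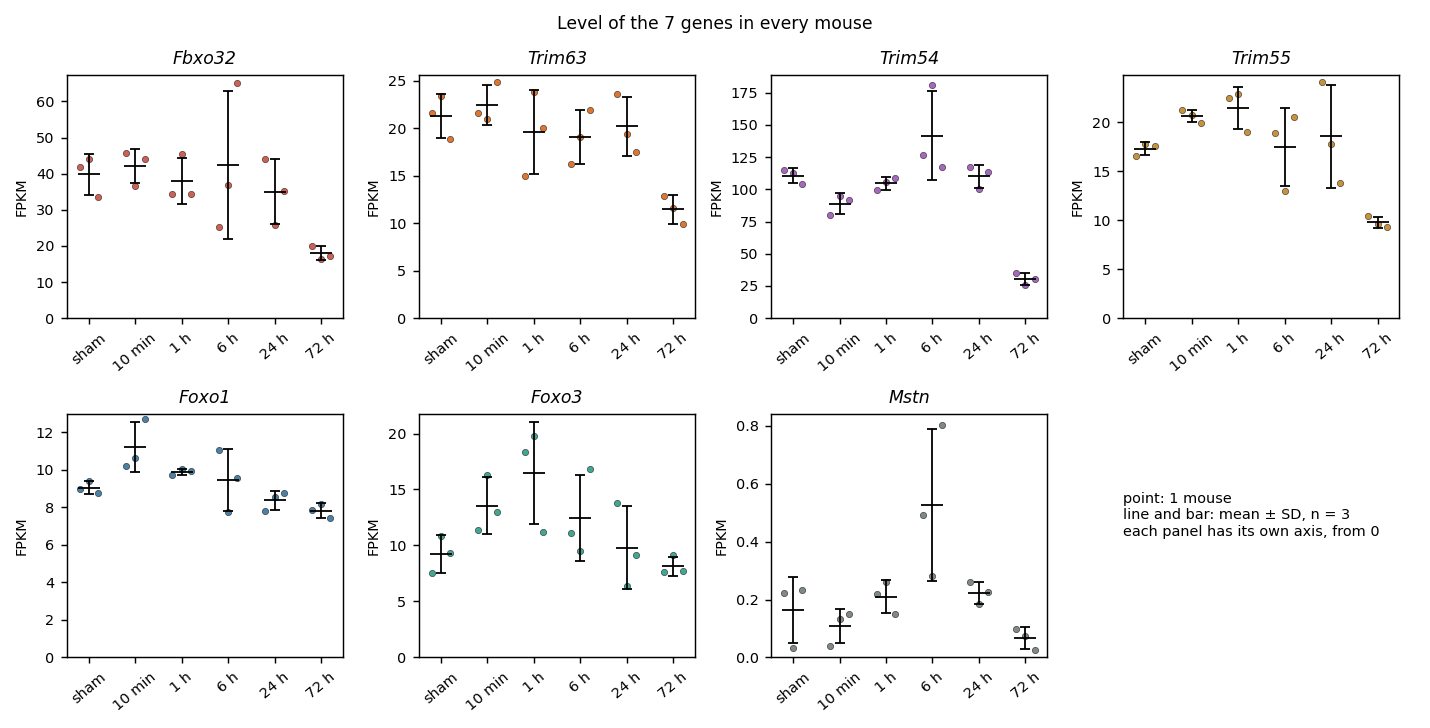
FPKM of the 7 genes in each of the 18 mice, by time after ligation (points: mice; lines and bars: mean ± SD, n = 3; each panel has its own axis from 0). All 3 mice at 72 h lie below all sham mice for Fbxo32, Trim63, Trim54, Trim55 and Foxo1, and the 6 h mice of Fbxo32 spread from 25.4 to 65.0 FPKM. The share of all genes whose mice did not overlap with sham was not counted.

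Fbxo32 measured 41.8, 44.1 and 33.5 FPKM in the sham mice. At 10 min the mice had 45.7, 36.7 and 44.0 FPKM, and at 1 h 34.4, 45.4 and 34.3. The 6 h mice were far apart, at 25.4, 36.9 and 65.0 FPKM, and those of 24 h had 44.0, 25.8 and 35.2. All 4 early groups overlapped with sham, with both the lowest and the highest of these values at 6 h. By 72 h the 3 mice had 20.1, 16.3 and 17.3 FPKM, below every other mouse of the series. The mean at 72 h was 17.9 ± 1.94 FPKM (SD, n = 3) against 39.8 ± 5.57 in sham, a log2 fold change of -1.10 with a standard error of 0.12 (95% interval -1.37 to -0.84, adjusted p = 3.05e-05). Before then the means lay between 88.0% and 107% of sham, and the interval at 6 h, from -0.71 to 0.71, was wide because of the spread between mice.

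Trim63, the ligase of myosin and troponin I, had 21.6, 23.5 and 18.9 FPKM in sham mice. The mice of 10 min had 21.6, 20.9 and 24.9 FPKM, those of 1 h 15.0, 23.8 and 20.0, those of 6 h 16.3, 19.0 and 21.9, and those of 24 h 23.6, 19.4 and 17.5. Every early group overlapped with sham, and the means stayed between 89.6% and 105% of it. At 72 h the values of 12.9, 11.6 and 9.92 FPKM lay below those of all other mice. The log2 fold change against sham was -0.84 with a standard error of 0.11 (95% interval -1.09 to -0.59, adjusted p = 0.000121).

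Trim54, the most abundant of the 7 genes, moved most. Sham mice had 115, 113 and 104 FPKM, and the 10 min mice, at 79.7, 94.8 and 91.9, were all below them. The mice of 1 h had 99.4, 105 and 109 FPKM, and the 6 h mice, at 126, 181 and 118, were all above sham. At 24 h the values of 117, 100 and 113 FPKM overlapped with sham again. The dip at 10 min had a log2 fold change of -0.32 (95% interval -0.49 to -0.14) and an adjusted p of 0.140, and the higher level at 6 h one of 0.33 (95% interval -0.04 to 0.70) and an adjusted p of 0.150. Neither passed the threshold. At 72 h the mice had 35.2, 25.7 and 30.6 FPKM, and the log2 fold change against sham was -1.84 with a standard error of 0.11 (95% interval -2.08 to -1.59, adjusted p = 9.88e-07).

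Trim55 was steady between sham mice, with 16.6, 17.8 and 17.6 FPKM. All mice of 10 min (21.2, 20.8 and 20.0 FPKM) and of 1 h (22.5, 22.8 and 19.0 FPKM) were above them. These log2 fold changes of 0.24 (95% interval 0.10 to 0.38, adjusted p = 0.143) and 0.29 (95% interval 0.10 to 0.48, adjusted p = 0.233) did not pass the threshold. Without the 1 h mouse at 19.0 FPKM, Trim55 at 1 h had a log2 fold change of 0.37 and an adjusted p of 0.0482. The groups of 6 h (19.0, 13.0 and 20.6 FPKM) and 24 h (24.1, 17.8 and 13.8 FPKM) lay on both sides of sham. At 72 h the level was 10.4, 9.59 and 9.36 FPKM, a log2 fold change of -0.76 with a standard error of 0.07 (95% interval -0.92 to -0.60, adjusted p = 1.4e-05).

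On log2(FPKM + 1), Foxo3 had the largest difference from sham among the 6 tested genes at 10 min and at 1 h. Sham mice had 7.52, 10.9 and 9.36 FPKM. The 10 min mice, with 11.4, 16.3 and 13.0, and the 1 h mice, with 18.3, 19.8 and 11.2, were all higher than sham. The means were 147% and 178% of sham, the log2 fold changes 0.51 (95% interval 0.15 to 0.87, adjusted p = 0.212) and 0.74 (95% interval 0.26 to 1.23, adjusted p = 0.239). Neither passed the threshold, and without the 1 h mouse at 11.2 FPKM the value at 1 h was 0.98 with an adjusted p of 0.0281. The mice of 6 h (11.1, 9.53 and 16.8 FPKM), 24 h (13.8, 6.42 and 9.19 FPKM) and 72 h (7.62, 9.13 and 7.70 FPKM) overlapped with sham. At 72 h the log2 fold change was -0.15 (95% interval -0.44 to 0.14, adjusted p = 0.289). After median-of-ratios scaling and after quantile normalization it was -0.43 (adjusted p = 0.0119) and -0.59 (adjusted p = 0.00266), which passed the threshold.

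Foxo1 varied less. Its sham mice had 8.97, 9.41 and 8.74 FPKM, the 10 min mice 10.2, 10.6 and 12.7, and the 1 h mice 9.74, 10.0 and 9.92. Both of these groups lay above sham without overlap, with log2 fold changes of 0.28 (95% interval 0.07 to 0.48, adjusted p = 0.240) and 0.12 (adjusted p = 0.488), which did not pass the threshold. At 6 h (11.1, 7.76 and 9.56 FPKM) and 24 h (7.80, 8.54 and 8.77 FPKM) the mice overlapped with sham. The 72 h mice, with 7.87, 8.19 and 7.43 FPKM, were all below sham, and the log2 fold change was -0.19 with a standard error of 0.07 (95% interval -0.35 to -0.02, adjusted p = 0.0398). This call was close to the threshold: it was lost when any 1 of the 3 sham mice or the 72 h mouse with 7.87 or with 7.43 FPKM was left out, with adjusted p from 0.0604 to 0.126.

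Mstn was at the lower end of what the libraries could show. It measured 0.223, 0.0333 and 0.234 FPKM in sham mice and 0.040, 0.134 and 0.152 at 10 min. The 1 h mice had 0.218, 0.261 and 0.149 FPKM, and the 6 h mice 0.493, 0.282 and 0.803. Values of 0.261, 0.183 and 0.226 FPKM were found at 24 h, with lower ones of 0.0998, 0.0739 and 0.0256 at 72 h. All 6 h mice were above all sham mice, with a mean of 0.526 ± 0.262 FPKM against 0.164 ± 0.113. Since no mouse reached 1 FPKM, Mstn was outside the test. In a fit of all genes without that filter the adjusted p at 6 h against sham was 0.103. The 72 h mice against the 24 h mice had a log2 fold change of -0.20, understated by the pseudocount of 1 at this level, and an adjusted p of 0.0111, in a comparison where 8.96% of 18788 genes were called lower.

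Calls at the early times were rare for all genes and absent for the 7. At 10 min 0.248% of all genes tested were called higher and 0.0978% lower, and 0 of the 6 tested genes were called. Of these 6, 4 (Trim54, Trim55, Foxo1 and Foxo3) had an unadjusted limma p under 0.05. At 1 h 0.669% of all genes were called higher and 0.0526% lower, and again 0 of the 6, with 2 at an unadjusted p under 0.05 (Trim55 and Foxo3). The share of all genes at that unadjusted level was not counted, so these counts of 4 and 2 cannot be read as an early response of the 6. The response of the whole transcriptome was broad at 6 h, with 11.6% of genes called higher and 16.8% lower, and at 24 h, with 26.2% and 11.4%. These splits also moved with scaling: 1543 higher and 2233 lower genes at 6 h became 1977 and 1513 after median-of-ratios scaling, and 3496 and 1516 at 24 h became 2535 and 2317, or 2214 and 2695 after quantile normalization. The counts also fell when a sham mouse was left out, at 6 h to 763 higher and 877 lower without the first, 824 and 1016 without the second and 877 and 852 without the third, and at 24 h to 1262 and 366, 1319 and 399, and 1646 and 468. In the values as deposited 0 of the 6 genes were called by limma at 6 h or 24 h, and 0 had an unadjusted p under 0.05, while quantile normalization gave 1 call at 24 h, Foxo1 (-0.30, adjusted p = 0.0326). An F test over all 6 groups called 6 of the 6 genes, with adjusted p from 1.13e-08 for Trim54 to 0.0229 for Foxo3, where 85.7% of all genes were called.

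**Figure D2:**
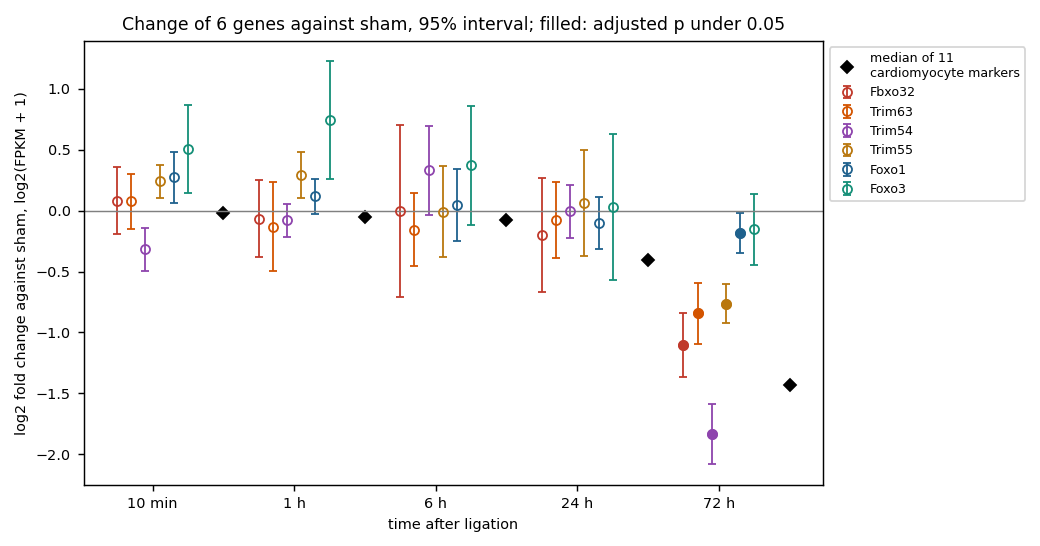
log2 fold change against sham of the 6 tested genes at each time after ligation on log2(FPKM + 1), with 95% intervals from limma (n = 3 mice a group), filled where the adjusted p was under 0.05; diamonds give the median of 11 cardiomyocyte markers. Filled points appear only at 72 h, where Trim54 (-1.84) lies below the marker median of -1.43 and the other genes above it.

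The steps between neighbouring times placed the fall of the ligases between 24 h and 72 h. In that last step Trim54 fell by 1.83 on the log2 scale (standard error 0.14, adjusted p = 8.75e-05), Fbxo32 by 0.90 (standard error 0.19, adjusted p = 0.00778), Trim55 by 0.82 (standard error 0.19, adjusted p = 0.0105) and Trim63 by 0.76 (standard error 0.14, adjusted p = 0.00491). Of all genes 13.5% were called lower and 29.7% higher in this step, against 4 and 0 of the 6. Foxo1, with a difference of -0.09, and Foxo3, with -0.19, were not called. In the step from 10 min to 1 h 0.391% of all genes were called higher and 0.211% lower, from 1 h to 6 h 9.32% and 11.2%, and from 6 h to 24 h 12.5% and 1.94%, a split of 1664 to 258 genes that became 403 to 368 after median-of-ratios scaling. The count of this last step rested on single mice: it was 191 higher and 37 lower without the first 6 h mouse, 1 and 1 without either of the others, 27 and 5 if the second 24 h mouse was omitted, or 873 and 197 if it was the third. From 1 h to 6 h the counts of 1241 and 1490 became 629 and 548, 458 and 362, and 588 and 532 without the first, the second or the third 1 h mouse. None of the 6 genes was called in the 3 steps up to 24 h by limma, and the counts at an unadjusted p under 0.05 were 1, 1 and 0, both times Trim54. No count over all genes was made at that unadjusted level.

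Much else in the tissue changed at 72 h. Of the 11 cardiomyocyte markers 10 were called lower and 1, the sodium-calcium exchanger Slc8a1, higher (not called higher after median-of-ratios or quantile scaling), with a median log2 fold change of -1.43. All 6 macrophage markers were called higher, their sum rising from between 261 and 302 FPKM in sham to between 4001 and 5341 FPKM, and so were all 6 fibroblast markers, from between 358 and 402 to between 1803 and 2022 FPKM. Of the 6 endothelial markers 0 were called higher and 3 lower, with a median log2 fold change of -0.29. Neutrophil markers rose earlier, with 2 of the 4 called higher at 1 h and all 4 at 6 h, 24 h and 72 h. Their sum went from between 2.32 and 4.92 FPKM in sham to between 16.2 and 29.2 at 1 h and between 114 and 986 at 6 h. It was between 42.5 and 953 FPKM at 24 h and between 49.6 and 60.1 at 72 h. The part of these markers in the fall of the ligases was not tested, and the size of each gene's fall beside them is given next. In bulk tissue fewer cardiomyocytes and less RNA per cardiomyocyte cannot be told apart. The 7 genes were therefore also set against the cardiomyocyte markers of the same mouse, as log2(FPKM + 1) less the mean of the 11 markers. For Mstn, below 1 FPKM in every mouse, the differences from sham were 0.46 at 6 h, 0.38 at 24 h and 1.12 at 72 h, each without overlap. Its own log2(FPKM + 1) changed by only 0.08 at 24 h and -0.12 at 72 h, so the differences at these times are mostly those of the markers. With a pseudocount of 1, a gene below 1 FPKM can hardly fall on this scale. The mean FPKM of Mstn at 72 h was 40.6% of sham. These differences therefore do not show how Mstn changed relative to the markers. The other 6 genes are described below.

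Trim54 fell more than the markers and Trim63 and Trim55 less. Trim54 had a more negative log2 fold change at 72 h than 10 of the 11 markers, all but the cytochrome oxidase subunit Cox6a2, and Fbxo32 than 4 of them. Trim63, Trim55, Foxo1 and Foxo3 fell less than 10 of the 11 and lay below only Slc8a1. Relative to the markers Trim54 was lower at 72 h than in sham by a difference of -0.60, Fbxo32 differed by 0.14, Trim63 by 0.40, Trim55 by 0.48, Foxo1 by 1.05 and Foxo3 by 1.09. The mice of 72 h and sham did not overlap for any of these but Fbxo32, and the exact two-sided permutation test gave 0.1 for each of the 5, the smallest p that 3 against 3 mice allow, and 0.4 for Fbxo32. With all genes centred in this way and tested by limma, Trim54 was called lower (adjusted p = 5.15e-05), as were 1.7% of all genes, and Trim63 (adjusted p = 0.00443), Trim55 (adjusted p = 0.00088), Foxo1 (adjusted p = 6.85e-08) and Foxo3 (adjusted p = 2.86e-07) higher. Since 93.6% of all genes were called higher on that scale, those 4 calls are no feature of these genes.

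Relative to the markers, Trim54 was also below sham at 10 min, by a difference of -0.39, and above it at 6 h, by 0.40, and at 24 h, by 0.30, each time without overlap (exact permutation p = 0.1). Trim55 was above sham at 10 min, 1 h and 24 h, by 0.17, 0.24 and 0.37, also without overlap. Trim63 was above sham at 24 h, by 0.23, Foxo1 at 10 min, by 0.20, and Foxo3 at 10 min and 1 h, by 0.43 and 0.69, each without overlap. The share of all genes without overlap on this scale was not counted, so these cases cannot be called a trait of the 6 genes. With all genes centred in this way limma called none of the 6 genes before 72 h, with adjusted p from 0.0708 to 0.356 for those that did not overlap with sham. At 24 h the median over all genes on this scale was 0.43, with 4814 genes called higher and 383 lower, so that Trim54, Trim55 and Trim63 lay below the median gene. Fbxo32 overlapped with sham at every time on this scale, with differences from -0.12 to 0.14.

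**Figure D3:**
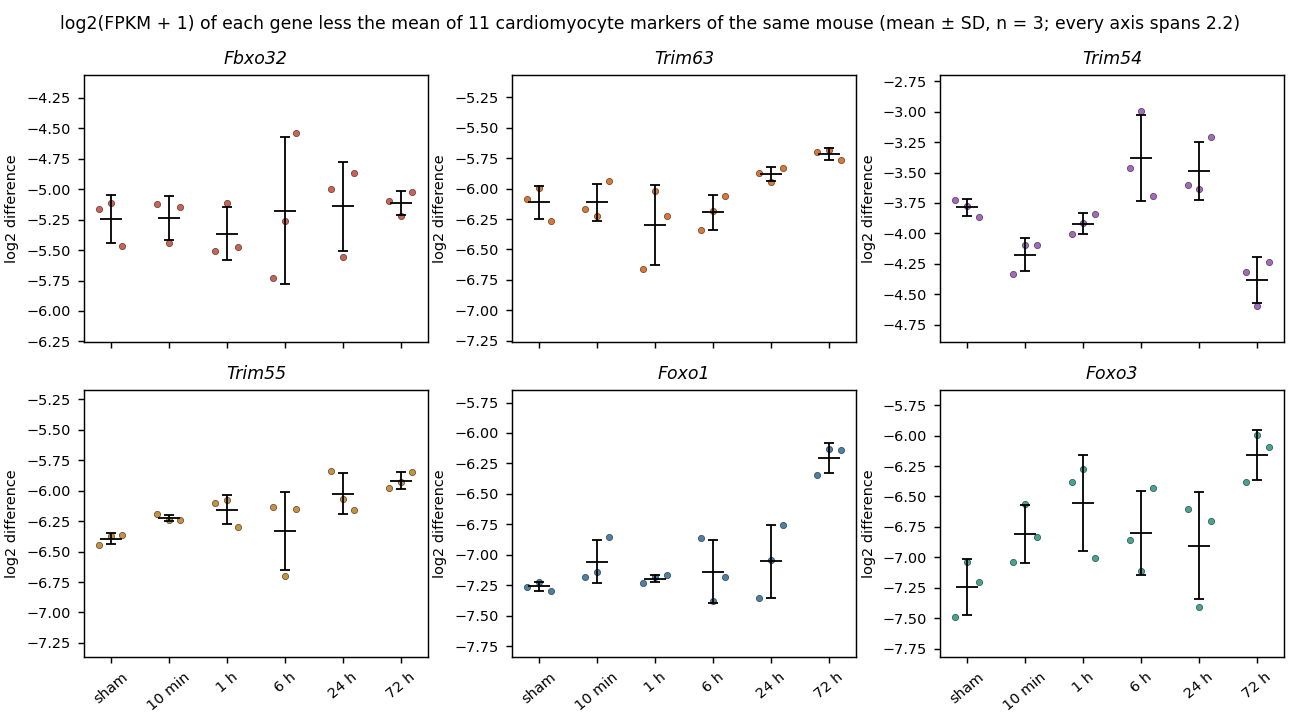
log2(FPKM + 1) of 6 genes less the mean of 11 cardiomyocyte markers in the same mouse, by time after ligation (points: mice; lines and bars: mean ± SD, n = 3; every axis spans the same range). At 72 h Trim54 lies below sham by 0.60, Fbxo32 overlaps with sham, and the other 4 genes lie above it.

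Ratios between genes within one library hardly depend on scaling, except through the pseudocount. The log2 ratio of Trim63 to Trim54 was -2.33 ± 0.10 in sham (SD, n = 3) and -1.33 ± 0.23 at 72 h, a difference of 0.99, and it was -1.94 ± 0.17 at 10 min, a difference of 0.39. Neither group overlapped with sham (exact two-sided permutation p = 0.1 for both, the smallest possible). The ratio of Trim63 to Trim55 was 0.28 ± 0.16 in sham and 0.20 ± 0.11 at 72 h, with overlapping mice (exact permutation p = 0.5). At 1 h it was -0.14 ± 0.36, a difference of -0.42 without overlap (exact permutation p = 0.1), or of -0.22 without the first 1 h mouse. That of Fbxo32 to Trim63 was 0.87 ± 0.07 in sham and 0.60 ± 0.14 at 72 h, a difference of -0.26 without overlap (exact permutation p = 0.1). The ratio of Foxo1 to Foxo3 was -0.02 ± 0.22 in sham and -0.64 ± 0.41 at 1 h, a difference of -0.63 with overlapping mice (exact permutation p = 0.2). With 4 ratios and 5 times, 20 such tests were made, in 4 of which the mice did not overlap, and none can reach 0.05 before or after adjustment. Where groups do not differ, a share of 0.1 of such tests still gives a p of 0.1. The tests share mice and genes, and the same test was also made of each gene against the cardiomyocyte markers.

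**Figure D4:**
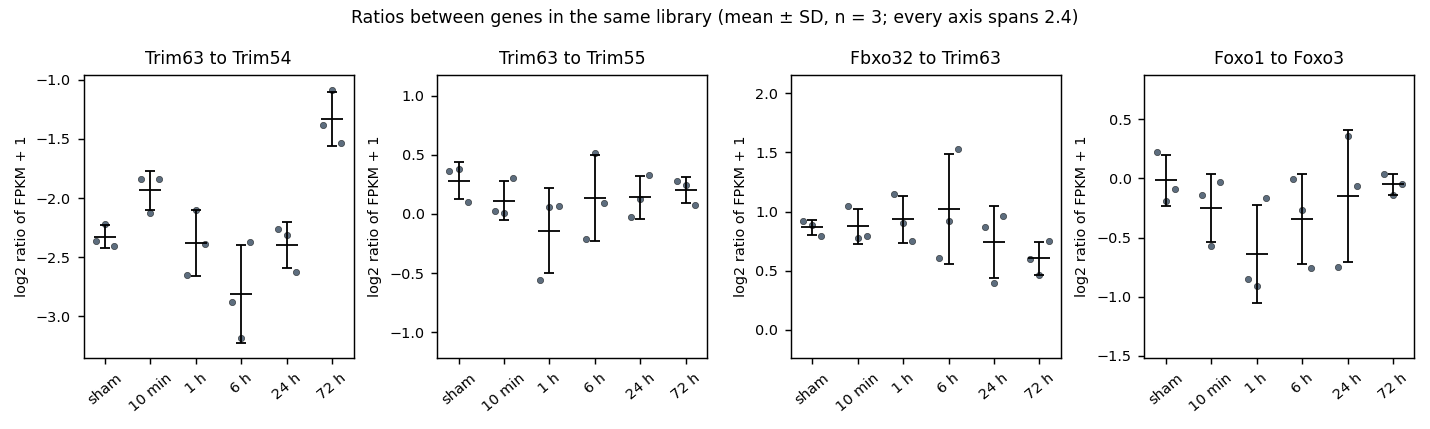
log2 ratio of FPKM + 1 between pairs of genes in the same library, by time after ligation (points: mice; lines and bars: mean ± SD, n = 3; every axis spans the same range). Trim63 to Trim54 is highest at 72 h, where its mean is -1.33 against -2.33 in sham, and Trim63 to Trim55 overlaps with sham at 72 h and lies below it at 1 h, at -0.14 against 0.28.

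Across the 18 mice, the genes whose log2(FPKM + 1) followed each of the 7 most closely were sought among 11997 genes with a mean of at least 1 FPKM. The mice share the large shift at 72 h, so these correlations are descriptions. Klhl38, a Kelch-family gene of muscle, was first for Fbxo32 (r = 0.951) and among the first 3 for Trim63 (r = 0.924). The other genes for Fbxo32 were Eci2 (r = 0.906) and Adk (r = 0.903), and for Trim63 the ankyrin and SOCS box genes Asb12 (r = 0.932) and Asb8 (r = 0.904). Trim54 was most like Cyp4b1 (r = 0.975), the triglyceride lipase Pnpla2 (r = 0.971) and Saraf (r = 0.962). Trim55 was most like the deubiquitinase Usp13 (r = 0.969), 3110057O12Rik (r = 0.955) and Pde4dip (r = 0.951). Foxo3 was most like Pygo1 (r = 0.938), Pdpr (r = 0.874) and Ppp1r12b (r = 0.872), and for Foxo1 Huwe1 (r = 0.842) and Heca (r = 0.841) were among the first 3. Mstn reached 0.814 with Susd6, 0.812 with Kank1 and 0.807 with Cab39.

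Among genes upstream of FOXO in the insulin and IGF1 pathway, Sgk1 and Irs2 were called higher at 1 h, and at 72 h Igf1 rose and Insr fell. Of 15 such genes, all tested, these 2 were the calls at 1 h, where the median of the list was 0.03. Of all genes 0.669% were called higher and 0.0526% lower at that time. Irs2, an insulin receptor substrate, went from 4.04 ± 0.50 FPKM in sham to 15.1 ± 6.42 (log2 fold change 1.61, adjusted p = 0.0332), and Sgk1, a kinase that phosphorylates FOXO3, from 14.3 ± 0.25 to 38.2 ± 5.18 (log2 fold change 1.35, adjusted p = 0.000493). The Irs2 call was lost without any 1 of the sham mice or without the first 1 h mouse, while Sgk1 was called in each case. Calls numbered 3 higher and 1 lower at 6 h (2 in all without the second or the third sham mouse), 4 higher and none lower at 24 h (1, 1 and 2 in all without the first, the second or the third sham mouse), and 6 higher and 4 lower at 72 h. The shares of all genes called higher and lower were, in this order, 11.6% with 16.8% (6 h), 26.2% with 11.4% (24 h) and 53.1% with 24.2% (72 h). Beside these, the share of the list called higher was near that of all genes at 24 h and below it at 72 h, and its share called lower at 72 h was near that of all genes. The calls at 24 h included Irs2 (0.84), the Akt-activating kinase Pdpk1 (0.51) and the PI3-kinase subunit Pik3cb (0.51). At 72 h Igf1 itself, the growth factor that macrophages and fibroblasts also make, rose from 0.859 ± 0.079 to 9.50 ± 1.09 FPKM (log2 fold change 2.49, adjusted p = 9.76e-08), Irs2 was at 0.69, and the insulin receptor Insr fell from 30.6 ± 1.03 to 15.4 ± 0.62 FPKM (log2 fold change -0.94, adjusted p = 2.21e-06). The list had a median log2 fold change of 0.10 at 72 h, against 0.29 for all genes, and its split turned to 2 higher and 6 lower after median-of-ratios scaling and 1 higher and 7 lower after quantile normalization. Over all genes these scalings gave 5243 higher and 4752 lower, and 4389 higher and 5711 lower.

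Partners and relatives of the FOXO factors moved in both directions. Of 10 genes, none was called at 10 min or 1 h by limma. At 6 h 2 were called higher and 4 lower, against 11.6% and 16.8% of all genes. At 24 h 2 were called higher and 3 lower, against 26.2% and 11.4% of all genes. The calls at 72 h were 2 higher and 6 lower, against 53.1% and 24.2% of all genes. Leaving out the third 1 h mouse gave 2 calls at 1 h, leaving out the first or the third sham mouse gave 3 at 6 h, and at 24 h there were 1, 2 and 2 without the first, the second or the third sham mouse and 8 without the first 24 h mouse. Fkbp5, a chaperone of the glucocorticoid receptor whose gene the receptor itself induces, went from 15.1 ± 2.77 FPKM in sham to 134 ± 22.7 at 6 h (log2 fold change 3.08), a time at which it was singled out after its values were seen, and was still higher at 24 h (1.68) and 72 h (1.006). At 24 h Foxo6 was lower (-0.75) and Prkaa1, a catalytic subunit of AMP-activated kinase, higher (0.60). At 72 h Klf15, a factor that the glucocorticoid receptor induces and that acts on muscle ligase genes, fell from 23.0 ± 2.77 to 5.44 ± 1.12 FPKM (log2 fold change -1.91, adjusted p = 2.96e-06), and Ppargc1a, a coactivator of mitochondrial genes, from 21.4 ± 0.68 to 7.55 ± 1.02 FPKM (log2 fold change -1.40, adjusted p = 2.01e-06). The median of the list at 72 h was -0.36.

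Some other known FOXO targets were called at times before 72 h. Of 18 genes, Txnip, a brake on glucose uptake, was called higher at 10 min (147.5 ± 8.93 FPKM against 84.1 ± 12.9 in sham, log2 fold change 0.81, adjusted p = 0.0369). That call held without the second sham mouse but was lost when any 1 of the other 5 mice was left out (adjusted p from 0.054 to 0.149). At 1 h Txnip (1.05), Ddit4, an inhibitor of mTOR signalling (1.64, adjusted p = 0.0036), and the transcriptional regulator Cited2 (0.88) were called higher, in each case also without any 1 mouse. Of all genes 0.248% were called higher at 10 min and 0.669% at 1 h. At 6 h 8 of the 18 were called higher and 0 lower, where 11.6% of all genes were called higher and 16.8% lower, with a median of 0.37 against -0.08 for all genes. The largest of these, singled out after its values were seen, was the pyruvate dehydrogenase kinase Pdk4, at 1673 ± 216 FPKM against 97.0 ± 20.4 in sham. Several of these genes also answer to low oxygen or glucocorticoids. At 24 h 2 were called higher and 2 lower, against 26.2% and 11.4% of all genes, among them Eif4ebp1 (0.90), Sod2 (-0.50) and Pink1 (-0.46), with 1 call left without any of the sham mice, and the 72 h calls were 4 higher and 9 lower, against 53.1% and 24.2%. Pink1, a kinase of mitochondrial quality control (-1.63), and the mitochondrial superoxide dismutase Sod2 (-1.37) fell at 72 h, and the cell death gene Bcl2l11 rose (1.08). The median at 72 h was -0.24.

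Of 20 other muscle ligases and cullin-RING parts 12 were called lower and 5 higher at 72 h, against 24.2% and 53.1% of all genes, with a median of -0.35. None was called at 10 min or 1 h by limma, and 2 were called higher and 4 lower at 6 h as well as 24 h. At 6 h this was near the shares over all genes, 11.6% higher and 16.8% lower, and at 24 h those were 26.2% and 11.4%. Asb2, the substrate receptor of a cullin-RING ligase that degrades filamins, fell from 316 ± 1.96 FPKM in sham to 163 ± 56.3 at 24 h (log2 fold change -1.02) and 102 ± 26.6 at 72 h (-1.66, adjusted p = 1.71e-05). At 24 h the F-box gene Fbxl22 was also lower (-1.01) and Cblb higher (0.73). At 72 h Fbxo31 (-1.44) and Park2, the parkin ligase that works with Pink1 (-1.09), were among the largest falls. The earlier calls depended on single mice, with 3 left at 6 h without any of the sham mice, and at 24 h 0, 0 and 1 without the first, the second or the third sham mouse.

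In the myostatin and activin pathway Inhbb and Fstl3 were called higher at 24 h and 72 h and Bmp1 at 72 h. Of 18 genes 15 were tested, with 7 called higher and 0 lower at 6 h, 5 higher and 0 lower at 24 h (2 in all without any 1 of the sham mice), 11 higher and 2 lower at 72 h, and a median of 0.69 at 72 h. Over all genes too more were called higher than lower at 24 h (26.2% against 11.4%) and 72 h (53.1% against 24.2%), but not at 6 h (11.6% against 16.8%). Smad7, the inhibitory Smad, was the single call at 1 h (0.69, adjusted p = 0.0419), which was lost without any 1 of the sham mice or without the first or second 1 h mouse. At 1 h 0.669% of all genes were called higher. Among ligands, Inhbb, a subunit of activin B, went from 1.47 ± 0.35 FPKM in sham to 25.8 ± 22.9 at 24 h (log2 fold change 3.10) and 17.2 ± 4.44 at 72 h (2.86, adjusted p = 1.16e-06). Inhba, the subunit of activin A, went from 0.092 ± 0.036 to 2.35 ± 2.26 FPKM at 24 h (1.42). Among inhibitors Fstl3, which binds activins and myostatin, rose from 1.57 ± 0.096 to 21.7 ± 3.13 FPKM at 24 h (3.13, adjusted p = 0.000173) and was at 9.63 ± 1.54 at 72 h (2.04). Bmp1, a protease that frees myostatin from its propeptide and processes collagen, rose from 40.8 ± 4.38 to 217 ± 13.9 FPKM at 72 h (2.39, adjusted p = 9.46e-08). All 4 neutrophil markers were called higher at 6 h (median 4.52) and 24 h (median 4.02). Of the 6 fibroblast markers 0 were called higher and 2 lower at 6 h, 2 higher and 2 lower at 24 h and 6 higher at 72 h, and of the 6 macrophage markers 0 were called higher and 1 lower at 6 h, 5 higher at 24 h and 6 higher at 72 h. The part of these markers in the changes of the list was not tested.

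Most of the substrates and partners of the ligases were called lower at 72 h. Of 16 genes, 1 was called higher and 2 lower at 6 h, 2 higher and 5 lower at 24 h, and 2 higher and 10 lower at 72 h, with a median of -0.49. Of all genes 16.8% were called lower at 6 h, 11.4% at 24 h and 24.2% at 72 h. Called higher at these times were 11.6%, 26.2% and 53.1%. Leaving out the first sham mouse left 1 call at 6 h, leaving out the second or the third 6 h mouse gave 5 or 6, and at 24 h 2, 3 and 4 calls were left without the first, the second or the third sham mouse. Rcan1, an inhibitor of calcineurin, which Fbxo32 targets in heart muscle, was higher at 24 h (1.77). At that time the adult myosin heavy chain Myh6 was lower (-1.19) and Myh7 higher (1.00). At 72 h the ventricular light chains Myl2 (-2.04) and Myl3 (-1.95) and Myh6 (-1.88) had the largest falls of the list. Several of these genes are themselves cardiomyocyte genes. After median-of-ratios scaling the calls at 72 h were 4 higher and 12 lower for FOXO targets, 1 and 13 for other ligases, 10 and 3 for the myostatin pathway and 1 and 14 for substrates. Over all 13329 genes that scaling gave 5243 higher and 4752 lower. On the scale centred on cardiomyocyte markers all 6 lists had more genes called higher than lower at 72 h: 15 and 0 upstream of FOXO, 8 and 1 of FOXO relatives, 16 and 1 of FOXO targets, 16 and 1 of other ligases, 15 and 0 of the myostatin pathway and 10 and 4 of substrates. On that scale 93.6% of all genes were called higher and 1.7% lower, so a majority called higher is no feature of these lists.

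**Figure D5:**
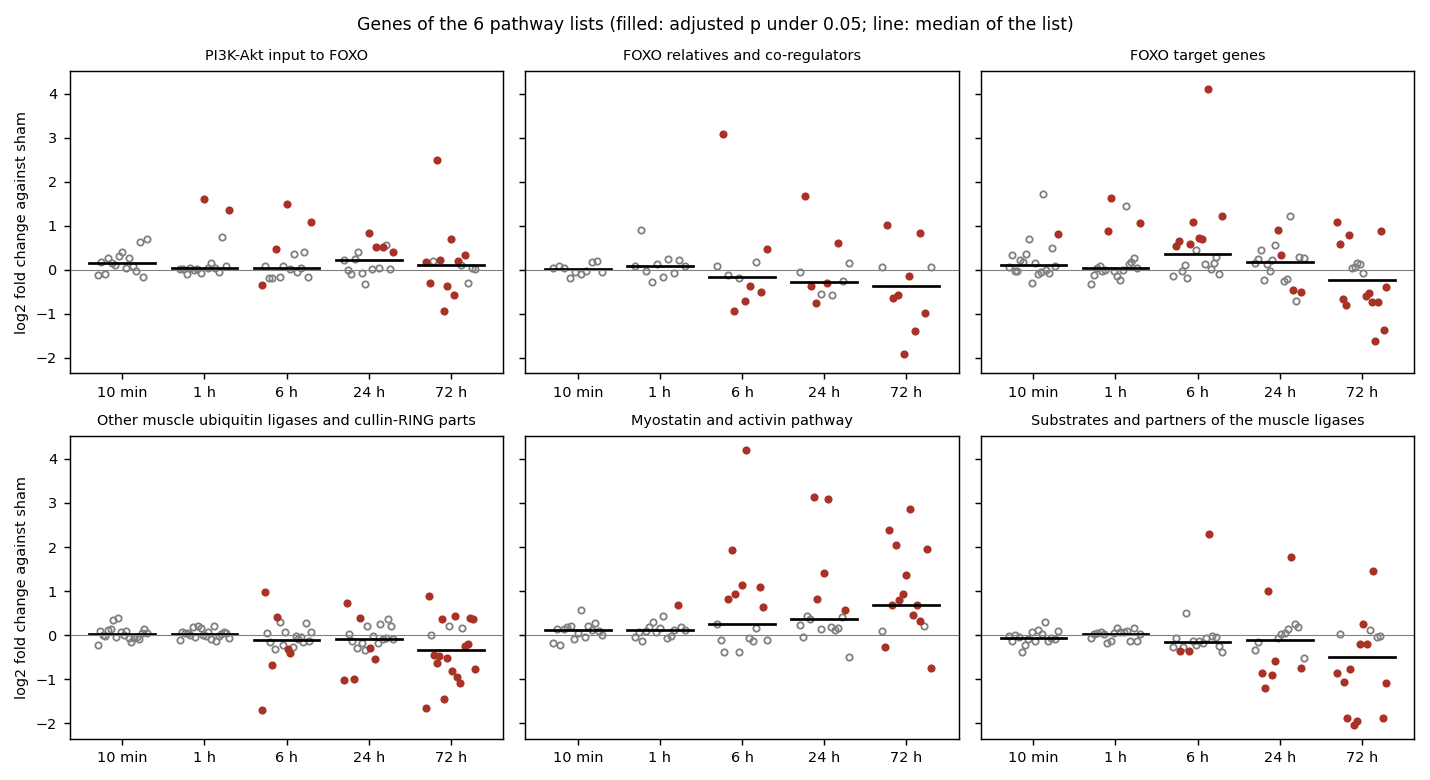
log2 fold change against sham on log2(FPKM + 1) of every tested gene of the 6 lists at each time after ligation (points: genes, filled where the adjusted p was under 0.05; lines: median of the list). At 72 h the median is 0.69 for the myostatin and activin list and -0.49 for substrates and partners of the ligases.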

How the data were processed

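RNA-seq was analysed for 18 hearts in 6 groups of 3, grouped by sample titles. Per the labels and the study's methods, the authors used cutadapt 1.18 for trimming and HISAT2 2.1.0 for mapping to mm10, and deposited FPKM estimated by StringTie 1.3.4d. The annotation and use of strand are not given in the sources used here. FPKM was used as deposited, as log2(FPKM + 1), for the 13333 genes with at least 1 FPKM in at least 1 mouse, the filter of the authors. Differences are therefore on the log2(FPKM + 1) scale, which understates those of low genes. In R 4.3.3, limma 3.58.1 (lmFit, eBayes with a variance trend) compared the 6 mice of each comparison, with two-sided p-values adjusted by Benjamini-Hochberg across every gene tested, and a moderated F test used all 18 mice. Simulated data with known changes were used to test the steps. Ratios were tested by exact two-sided permutation in scipy 1.17.1 under Python 3.11.15, and figures drawn with matplotlib 3.10.9. A gene was named if it was one of the 7, was called at 10 min or 1 h, was among the 3 largest called changes of its list at 24 h or 72 h, or was among the 3 closest correlates of a member, and 1 of these correlates is not reported here. The 7 genes, the 6 pathway lists, the 7 marker lists and the motifs, except the half-site, were chosen with earlier results of these data known. Column names with a letter for a digit or for h were matched to the titles. Promoters are RefSeq, and motif searches covered both strands. Alternatives were a pseudocount of 0.1, other filters and scalings, one fit of all mice, a replicate block, no variance trend and leaving out each mouse.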

Additional observations from a re-analysis of the deposited data

Results flagged for a closer look

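The differences of the ligases from sham were not the same at 72 h as at 24 h, by a limma test of the 72 h mice against the 24 h mice, which compares both effects since they share the sham mice. The log2 difference was -0.9016 for Fbxo32 (35.0 ± 9.07 FPKM at 24 h, 17.9 ± 1.94 at 72 h), -0.7641 for Trim63 (20.2 ± 3.12 and 11.5 ± 1.49), -1.8296 for Trim54 (110 ± 8.86 and 30.5 ± 4.74) and -0.8249 for Trim55 (18.6 ± 5.23 and 9.79 ± 0.56). In each case all 3 mice of 72 h were below all 3 of 24 h, but the share of all genes without such overlap was not counted. No outlier test of single mice was made, but each mouse was left out in turn. In these fits and the other settings not centred on cardiomyocyte markers, limma called the ligases lower throughout. The highest adjusted p was 0.0359 for Fbxo32, 0.0254 for Trim63, 0.00096 for Trim54 and 0.0439 for Trim55.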

How the results depend on the processing

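On the scale centred on cardiomyocyte markers the signs turned for Fbxo32 (0.1356), Trim63 (0.3974), Trim55 (0.47617), Foxo1 (1.0538) and Foxo3 (1.0855) at 72 h against sham, and for the same genes at 72 h against 24 h (0.030105, 0.1676, 0.10681, 0.84636 and 0.74631), since the markers fell by more. Trim54 remained lower (-0.60 and -0.90). A change of sign in a difference called under neither setting was not counted. On the other settings the 72 h differences ranged from -2.14 to -1.72 for Trim54, -1.43 to -1.03 for Fbxo32, -1.23 to -0.75 for Trim63 and -1.17 to -0.69 for Trim55, called throughout. Foxo1 at 72 h lost its call with equal FPKM sums (-0.11, adjusted p = 0.195) and with all 18 mice in one fit (adjusted p = 0.119). Counts of called members moved by over 1.5 times in 3 cases: from 0 to a range of 0 to 2 at 1 h when leaving out a mouse (2 without the third 1 h mouse), from 0 to 1 at 24 h with quantile normalization (Foxo1, -0.30, adjusted p = 0.0326), and from 0 to 1 at 6 h against 1 h with all 18 mice in one fit (Trim54, 0.41, adjusted p = 0.0364); the cause was not tested. Same-numbered mice did not vary together (correlations from -0.327 to 0.415, in 0 of 9 comparisons all over 0.1), so numbers were not taken as pairs; with a replicate block 4 genes were called at 72 h against sham in place of 5, Foxo1 being lost (adjusted p = 0.053), and the other counts of called members did not change. Over all genes the block left 1 higher and 0 lower at 24 h against 6 h, in place of 1664 and 258. For the 6 lists, 61 of 480 counts moved by over 1.5 times, all at 24 h or earlier and many of them when a mouse was left out. These counts, like those of the members, pool higher and lower calls, so a turn of direction is not counted. Such a turn occurred at 72 h against sham. There the other ligases had mostly lower calls as deposited and mostly higher calls on the scale centred on cardiomyocyte markers. The added settings of the ratios, a pseudocount of 0.1 and leaving out each mouse, turned no sign of those that did not overlap with sham. Without counts, the depth behind Mstn is not known directly.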
